A study of Mus musculus with 9 samples.

Results

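The genes examined here are 10 genes of terminal keratinocyte differentiation, chosen by name for their roles in building the cornified layer and for their position at the corneodesmosin locus, with earlier results of these data known, out of 17943 genes in the count table. They are the transglutaminase genes *Tgm1*, *Tgm3*, *Tgm5* and *Tgm2*, the protease genes *Casp14*, *Asprv1* and *Blmh*, the peptidylarginine deiminase gene *Padi1*, the corneodesmosin gene *Cdsn*, and *2300002M23Rik*, which lies beside *Cdsn*. All 10 passed the filter on low counts, which kept the 16426 genes with at least 10 counts summed over the 9 mice.

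Bulk RNA-Seq libraries of whole mouse skin came from 5 control mice and 4 *Supt6*-KO mice, harvested on day 10 after the last injection. *Supt6* encodes SPT6, a histone chaperone that travels with elongating RNA polymerase II. The controls, which the sample labels call wild-type, were *Supt6* fl/fl mice given corn oil according to the study's methods, and the *Supt6*-KO mice were K14-CreERT; *Supt6* fl/fl mice given tamoxifen. The study describes the *Supt6*-KO samples as lesional and the control samples as matched skin, and it places the injections in the first telogen phase. The groups therefore differ in the Cre transgene, in the drug and in lesion state as well as in *Supt6*, and these cannot be told apart. The labels name the ear as the tissue and the methods dorsal skin, and neither gives the age or sex of single mice. The K14 promoter drives the Cre in keratin 14-expressing epithelium, so dermal, vascular and immune cells of each sample are outside the targeted population. Deposited counts summed to between 29627341 and 30491197 per control mouse and between 30597189 and 30967107 per *Supt6*-KO mouse. Levels are given as CPM, the counts of a gene relative to the library's total in units of 1e+06 counts, after TMM scaling, which corrects library totals for differences in composition.

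*Supt6* itself was 74.5, 56.6, 63.6, 91.1 and 96.7 CPM in the controls and 28.6, 24.1, 21.9 and 28.4 CPM in the *Supt6*-KO mice, so all 4 *Supt6*-KO mice lay below the lowest control. The tissue was checked against keratinocyte genes, which were abundant in both groups. *Krt10*, the most abundant of 6 keratinocyte markers, had a mean of 14343 CPM in the controls and 16352 CPM in the *Supt6*-KO mice.

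In the upper epidermis, keratinocytes lose their nuclei and turn into corneocytes. Transglutaminases join envelope proteins such as involucrin, loricrin and the small proline-rich proteins by glutamine-lysine bonds, while filaggrin is cut from its precursor, deiminated and finally broken down to free amino acids by a succession of proteases and deiminases. Corneodesmosin is a glycoprotein of the corneodesmosome, the modified desmosome that holds corneocytes together until kallikrein proteases cut it and the cells are shed.

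Of the enzyme genes, 6 carry a catalytic residue that a short coding motif locates, and the sequence around it is shown for these to identify the genes whose changes follow and to show how alike the transglutaminases are. Each run has 63 bases of a spliced GENCODE transcript on the GRCm38 (mm10) build, with the catalytic codon in capitals. That codon specifies cysteine in the transglutaminases and in caspase-14 and aspartate in the ASPRV1 protease.
Tgm1: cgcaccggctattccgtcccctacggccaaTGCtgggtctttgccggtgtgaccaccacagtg
Tgm3: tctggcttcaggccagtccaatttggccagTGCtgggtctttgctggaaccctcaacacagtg
Tgm5: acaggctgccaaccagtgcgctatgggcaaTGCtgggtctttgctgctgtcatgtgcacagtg
Tgm2: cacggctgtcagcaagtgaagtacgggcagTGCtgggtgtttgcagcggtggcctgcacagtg
Casp14: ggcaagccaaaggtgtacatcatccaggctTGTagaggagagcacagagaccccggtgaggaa
Asprv1: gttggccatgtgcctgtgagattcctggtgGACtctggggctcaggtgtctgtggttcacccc
The capitals mark codon 376 in exon 7 of *Tgm1*, codon 273 in exon 6 of *Tgm3*, codon 283 in exon 6 of *Tgm5* and codon 277 in exon 6 of *Tgm2*. In *Casp14* they mark codon 136 in exon 4, and in *Asprv1* codon 210 in exon 1. On the reverse strand, the run of *Tgm1* lies within chr14:55709020-55709454, that of *Tgm5* within chr2:121053632-121070792, that of *Tgm2* within chr2:158129457-158131391 and that of *Casp14* within chr10:78714375-78714974. On the forward strand, *Tgm3* has its run within chr2:130029742-130029902 and *Asprv1* at chr6:86628771-86628833. All but that of *Asprv1* continue into the next exon, so these spans include an intron that is not printed. Between 38 and 45 of the 63 bases were identical in any pair of the 4 transglutaminase stretches, with the fewest shared by *Tgm3* and *Tgm1* or *Tgm2* and the most by *Tgm5* and *Tgm2*. The estimated counts of all 10 genes were whole numbers in every mouse.

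Of the 10 genes, 6 were higher and 2 were lower in *Supt6*-KO skin at an adjusted p under 0.05 (edgeR's quasi-likelihood test, Benjamini-Hochberg adjusted across the 16426 genes), and *Padi1* and *Cdsn* did not pass. Over all genes tested, 34.1% were higher and 36.8% were lower by the same rule, together 71.0%, so a call alone says little in this comparison. Scaled by library totals alone, 5 of the 10 were higher and 3 were lower, and of all genes 2771 were higher and 8970 lower. With a change of at least 2-fold added, 5 of the 10 were higher and 1 was lower, against 20.9% and 24.9% of all genes. Under library totals these counts were 4 and 2. Their median log2 fold change was 1.28 (range -2.47 to 8.13), beside a median of -0.07 over all genes. Every *Supt6*-KO mouse lay above every control for 6 of the 10 genes and below for 1, and 3 genes overlapped. Across all genes these shares were 28.9% above and 31.8% below. Each count of higher genes or of genes above among the 10 includes *2300002M23Rik*, which also sets the top of the range. This gene had 7 counts over the controls and passed the filter only through the *Supt6*-KO mice, so its place there rests on that. A stricter filter, requiring 10 counts from each mouse, left it untested. Then 5 of the 10 were called higher and 2 lower, and 4 and 1 with the 2-fold rule.

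**Figure D1:**
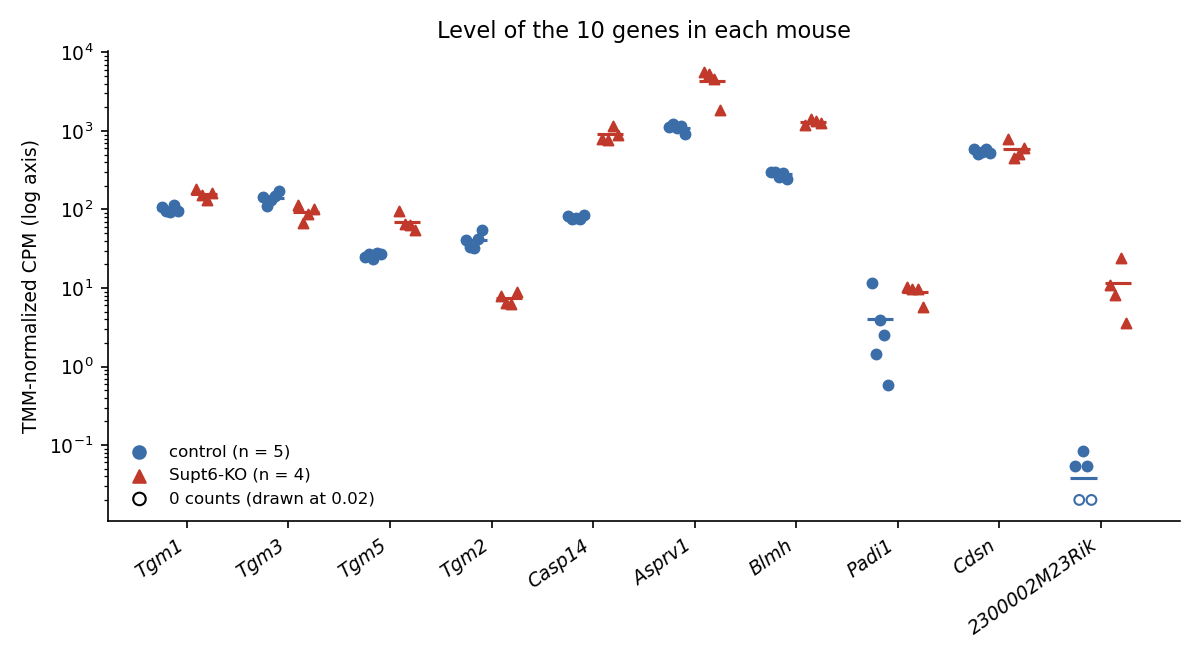
Level of each of the 10 genes in each mouse in TMM-normalized CPM on a log axis, with circles for the 5 controls, triangles for the 4 *Supt6*-KO mice and open symbols at 0.02 for mice with 0 counts. The groups separate fully for 7 genes and overlap for *Tgm3*, *Padi1* and *Cdsn*.

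The transglutaminase genes moved apart, with *Tgm5* and *Tgm1* higher and *Tgm2* and *Tgm3* lower in *Supt6*-KO skin, although *Tgm1* turned to -0.04 (log2) with library totals. *Tgm5* (NCBI gene 74176, chr2:121046111-121085841) encodes an epidermal transglutaminase of the spinous and granular layers. It was 24.6, 27.5, 23.1, 28.1 and 27.4 CPM in the controls and 94.8, 65.5, 63.8 and 54.7 CPM in the *Supt6*-KO mice. The lowest *Supt6*-KO mouse thus had well above the level of the highest control, and the *Supt6*-KO mice were more spread. The log2 fold change came to 1.41 (standard error, SE, 0.15, adjusted p = 1e-05, edgeR).

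*Tgm1* (NCBI gene 21816, chr14:55700009-55713921) encodes the membrane-anchored transglutaminase of the granular layer that cross-links the cornified envelope beneath the plasma membrane. Its controls were at 109, 95.2, 93.0, 113 and 96.0 CPM and its *Supt6*-KO mice at 184, 155, 133 and 163 CPM, without overlap. The rise was modest, with a log2 fold change of 0.65 (SE 0.12, adjusted p = 0.0006, edgeR), and with library totals alone its adjusted p was 0.84 (edgeR). That scaling moves the median of all genes from -0.07 to -0.76 on the log2 scale, so *Tgm1* stood about as far above the median gene under both.

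*Tgm3* (NCBI gene 21818, chr2:129987794-130050399) encodes a soluble transglutaminase that is made as a zymogen and acts in the upper epidermis and the hair follicle. Control mice had 145, 110.4, 132, 148 and 173 CPM and *Supt6*-KO mice 114, 67.4, 87.8 and 102 CPM. Control 2 fell within the range of the *Supt6*-KO mice, which otherwise lay below the controls. The log2 fold change came to -0.61 (SE 0.17, adjusted p = 0.0083, edgeR), and it no longer passed when each mouse's trend with transcript length was removed (-0.32, adjusted p = 0.081, edgeR). Longer transcripts were lower in *Supt6*-KO skin, by a slope of -1.87 in log2 fold change per unit of log10 length.

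*Tgm2* (NCBI gene 21817, chr2:158116405-158146392) encodes tissue transglutaminase, which is not specific to the epidermis and is also made by endothelial cells and fibroblasts. It was 41.4, 33.7, 32.5, 41.8 and 55.0 CPM in the controls and 8.02, 6.38, 6.17 and 8.91 CPM in the *Supt6*-KO mice. All 4 *Supt6*-KO mice sat far below the lowest control, and the log2 fold change came to -2.47 (SE 0.19, adjusted p = 1.3e-06, edgeR). Markers of endothelial cells and fibroblasts were mostly lower too, beside 36.8% lower over all genes. Not all cell types went this way, since 5 of 7 macrophage markers were higher and 1 was lower, beside 34.1% higher over all genes. Of 6 endothelial markers 5 were lower, *Pecam1* was the most abundant, none was at 0, and their sum was 84.9, 69.3, 54.2, 91.1 and 121 CPM in the controls against 42.3, 41.9, 46.2 and 32.8 CPM in the *Supt6*-KO mice. *Emcn* did not pass (0.01, adjusted p = 0.98, edgeR). For 6 fibroblast markers 4 were lower and none was at 0. *Col3a1*, the most abundant (-0.31, adjusted p = 0.43), and *Lum* (0.04, adjusted p = 0.88) did not pass in edgeR's test. The 6 fibroblast markers summed to 4710, 4221, 2928, 5949 and 10542 CPM in the controls and 2398, 2957, 3781 and 1948 CPM in the *Supt6*-KO mice, with overlap. The part of these cell types in the level of *Tgm2* was not tested, and in whole skin fewer cells of a type and less RNA per cell cannot be told apart.

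Per kilobase of transcript, the make-up of the 4 transglutaminase transcripts changed more than their sum. *Tgm1* held 39.1% ± 3.39 (SD, n = 5) of the summed CPM per kilobase in the controls and 52.2% ± 3.23 (SD, n = 4) in the *Supt6*-KO mice. The share of *Tgm3* went from 37.5% ± 2.92 to 21.0% ± 2.98 (SD, n = 5 and n = 4). That of *Tgm5* lay between 10.0% and 13.2% in the 5 controls and came to 24.9% ± 3.41 (SD, n = 4) in the *Supt6*-KO mice, and that of *Tgm2* went from 12.4% ± 1.59 to 1.93% ± 0.29 (SD, n = 5 and n = 4). None of the 4 shares overlapped between the groups. In the controls *Tgm1* and *Tgm3* were about equal and *Tgm5* and *Tgm2* came far behind, whereas in *Supt6*-KO skin *Tgm5* and *Tgm3* followed *Tgm1* at similar shares. The sum of the 4 was 91.1 ± 9.44 CPM per kilobase (SD, n = 5) in the controls and 107 ± 16.6 (SD, n = 4) in the *Supt6*-KO mice, with overlapping ranges. Shares within a mouse do not depend on the scaling of libraries, but the trend with transcript length was not removed from them. *Tgm3* has the longest of the 4 transcripts, at 4135 bases.

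**Figure D2:**
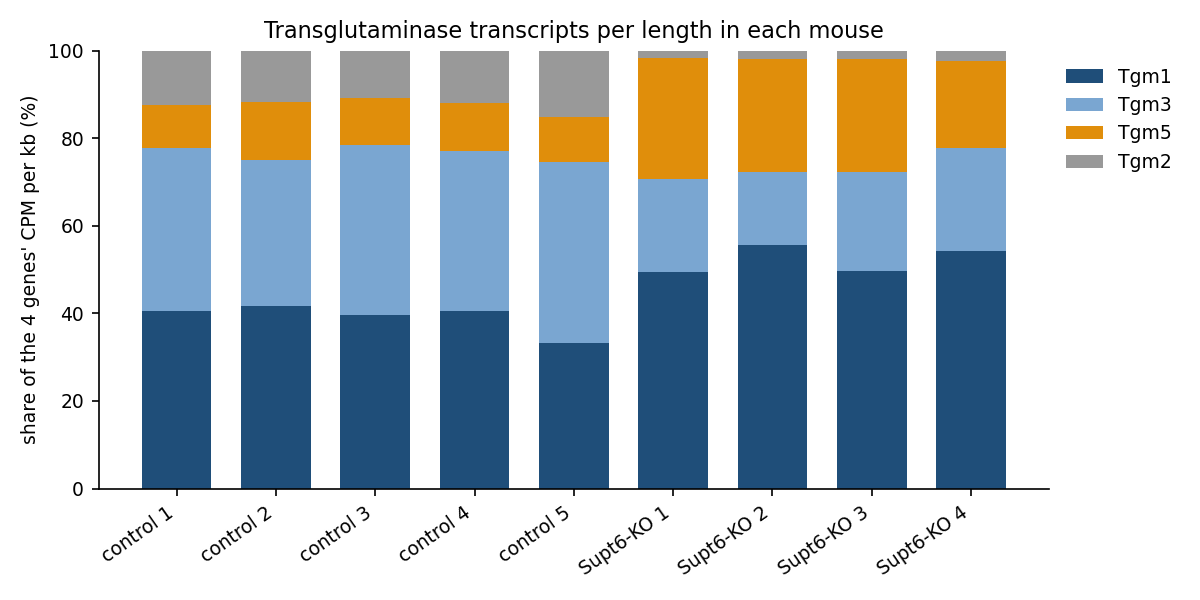
Share of each of *Tgm1*, *Tgm3*, *Tgm5* and *Tgm2* in their summed CPM per kilobase (percent) in each of the 5 control and 4 *Supt6*-KO mice, 1 bar a mouse. The *Tgm5* share lies between 10.0% and 13.2% in the controls and between 19.9% and 27.8% in the *Supt6*-KO mice, and the *Tgm2* share is at most 2.35% in the *Supt6*-KO mice.

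Among the other 5 genes of the transglutaminase family none was higher and 2 were lower, beside 34.1% and 36.8% over all genes. Their median log2 fold change of -1.91 is the value of *Tgm4*, a gene with few counts. *Tgm7*, which lies beside *Tgm5* on chromosome 2, was counted 70, 94, 95, 78 and 49 times in the controls and 0, 0, 0 and 1 times in *Supt6*-KO skin (adjusted p = 1.6e-06, edgeR). It passed the filter only through the controls, so its adjusted p adds nothing to the counts themselves. The neighbours *Tgm5* and *Tgm7* thus went in opposite directions. *Tgm6*, the gene next to *Tgm3*, had 9.20, 1.07, 2.88, 1.89 and 0.0255 CPM in the controls and 0.501, 0.048, 0.183 and 0.323 CPM in the *Supt6*-KO mice. It was lower at a log2 fold change of -3.46 (adjusted p = 0.015, edgeR), but the groups overlapped, since control 5 was below all *Supt6*-KO mice. The controls had the same order as the hair inner root sheath markers described with *Padi1*, whose part in the *Tgm6* values was not tested. *Tgm4* (-1.91, adjusted p = 0.12), *F13a1*, the coagulation factor XIII A chain (0.21, adjusted p = 0.48), and *Epb42*, the inactive erythrocyte member (0.37, adjusted p = 0.69), did not pass in edgeR's test.

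Transcripts of the proteins that these enzymes join were mostly higher. Of 21 substrate genes 15 were higher and 3 were lower, against 34.1% and 36.8% of all genes, with a median log2 fold change of 1.70. *Rptn*, encoding repetin, averaged 6.57 ± 1.38 CPM in the controls and 4458 ± 2187 CPM in *Supt6*-KO skin, and the late cornified envelope gene *Lce3a* averaged 0.239 ± 0.175 and 108 ± 44.7 CPM (SD, n = 5 and n = 4). *Sprr3* had 1 count over the controls and 378 over the *Supt6*-KO mice, where it averaged 3.55 ± 5.10 CPM (SD, n = 4), so it passed the filter only through the latter. At the other end stood the envoplakin gene *Evpl* (log2 fold change -1.74, adjusted p = 7.4e-06), the loricrin gene *Lor* (-1.23, adjusted p = 0.0086) and the trichohyalin gene *Tchh* (-1.08, adjusted p = 0.32), all from edgeR. The small proline-rich and late cornified envelope genes belong to families of close copies, so the split of reads among them is uncertain. Several genes of this list, *Lce3a* among them, were also picked by the study for follow-up of these mice, so the count is not independent evidence of a direction.

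The 3 protease genes *Casp14*, *Asprv1* and *Blmh*, which all act on filaggrin, were higher without overlap. *Casp14* (NCBI gene 12365, chr10:78711995-78718347) encodes caspase-14, a non-apoptotic caspase of the cornifying epidermis that cuts filaggrin. It was tightly grouped in the controls at 81.8, 75.3, 77.3, 76.6 and 85.6 CPM and reached 786, 777, 1159.5 and 889 CPM in the *Supt6*-KO mice. Each *Supt6*-KO mouse was about an order of magnitude above the controls, and the log2 fold change of 3.51 (SE 0.16, adjusted p = 6.8e-08, edgeR) exceeded that of 97.9% of the genes tested.

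*Asprv1* (NCBI gene 67855, chr6:86628174-86629710) encodes a retroviral-like aspartic protease that cuts the linkers of profilaggrin. Control levels were 1129.6, 1223, 1089, 1149 and 917 CPM, and *Supt6*-KO levels were 5610.2, 5319, 4553 and 1875 CPM. *Supt6*-KO mouse 4 was far below the other 3 but still above all controls. The log2 fold change came to 1.98 (SE 0.28, adjusted p = 7.5e-05, edgeR) with all mice and 2.23 without *Supt6*-KO mouse 4.

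*Blmh* (NCBI gene 104184, chr11:76945656-76987389) encodes bleomycin hydrolase, a cysteine protease that releases free amino acids from filaggrin fragments. Its controls had 301, 299.7, 261, 292 and 242 CPM and its *Supt6*-KO mice 1176, 1415, 1331 and 1253 CPM. Both groups were narrow, with a coefficient of variation of 9.36% in the controls and 7.92% in the *Supt6*-KO mice. The log2 fold change came to 2.21 (SE 0.14, adjusted p = 3.4e-07, edgeR).

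**Figure D3:**
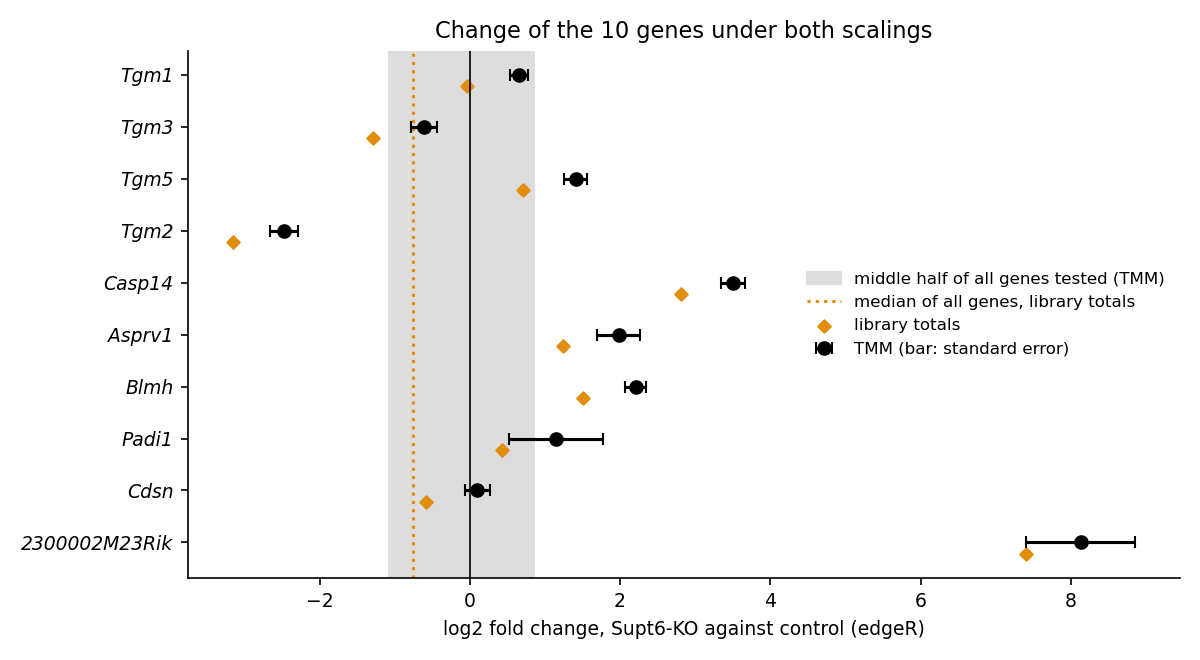
Log2 fold change of the 10 genes in *Supt6*-KO against control skin (edgeR), with TMM scaling as black points with standard errors and scaling by library totals as diamonds; the grey band holds the middle of all genes tested (25th to 75th percentile) and the dotted line their median under library totals. *2300002M23Rik* and *Casp14* lie farthest to the right and *Tgm2* farthest to the left, and *Tgm1* and *Cdsn* change sign with the scaling.

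Of 10 tested genes of the filaggrin family and of filaggrin processing, 4 were higher and 3 were lower, close to the 34.1% and 36.8% over all genes, with a median log2 fold change of -0.19. With library totals 3 were higher and 6 lower. The highest were *Klk5*, a kallikrein (1.73, adjusted p = 4.8e-05), *Hrnr*, encoding hornerin (1.48, adjusted p = 0.0028), and *Prss8*, encoding prostasin (1.10, adjusted p = 0.00018). For *Hrnr* the groups overlapped, since *Supt6*-KO mouse 4 had 1354 CPM, within the control range of 1338 to 1801 CPM. The other *Supt6*-KO mice had 3929 to 6606 CPM. The lowest were the proprotein convertase genes *Pcsk6* (-1.92, adjusted p = 2.8e-05) and *Furin* (-1.13, adjusted p = 0.00022) and the calpain gene *Capn1* (-0.90, adjusted p = 0.00021), all values from edgeR. The filaggrin gene itself was not analysed here. Among 9 other caspases 5 were higher and 2 were lower, against the same 34.1% and 36.8%, with a median log2 fold change of 0.73 beside 3.51 for *Casp14*. *Casp4* (2.24, adjusted p = 9.3e-05) and *Casp1* (1.05, adjusted p = 0.011), which act in inflammation, were among those that rose, and *Casp9* (-0.96, adjusted p = 2.9e-05) and *Casp2* (-0.30, adjusted p = 0.021) fell in edgeR's test.

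*Padi1* (NCBI gene 18599, chr4:140812981-140845778) encodes a deiminase that turns arginine into citrulline in keratins and filaggrin. It was at 11.5, 1.45, 3.93, 2.52 and 0.586 CPM in the controls and at 10.2, 9.83, 9.65 and 5.75 CPM in the *Supt6*-KO mice. Control 1 was above all *Supt6*-KO mice and the other 4 controls were below them all. The log2 fold change of 1.15 (SE 0.63, 95% interval -0.24 to 2.54) did not pass (adjusted p = 0.13, edgeR), and without control 1 it was 2.06 (adjusted p = 0.0024, edgeR). With a block for the replicate number it passed (1.22, adjusted p = 0.035, edgeR), but the numbers are not taken to pair mice.

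The spread of *Padi1* among the controls had the same order of mice as the markers of the hair inner root sheath. These 8 markers, among them *Krt71* as the most abundant, summed to 2072, 273, 742, 534 and 118 CPM in the controls and to 59.2, 84.1, 93.2 and 94.8 CPM in the *Supt6*-KO mice, and 7 of the 8 were lower while none was at 0 in either group. Controls 1, 3, 4, 2 and 5 ranked from high to low in both measures. For 5 of the 8 markers all *Supt6*-KO mice were below all controls, but *Krt27*, *Krt72* and *Tchh* overlapped, and the sum of control 5 was mostly *Gata3* (112 CPM), a transcription factor gene also expressed outside the follicle. Over all genes 36.8% were lower, and for 31.8% all *Supt6*-KO mice were below all controls. *Krt25* and *Krt72*, with 7 and 4 counts over the *Supt6*-KO mice, passed the filter only through the controls. The 6 inner root sheath keratins alone summed to 1616, 137, 557, 317 and 2.34 CPM in the controls and to 1.96, 2.16, 2.15 and 1.40 CPM in the *Supt6*-KO mice. Control 5 thus had about as little of these keratins as the *Supt6*-KO mice, but *Padi1* was 0.586 CPM in it and at least 5.75 CPM in them. *Padi3*, a deiminase of the hair follicle, had 32.9, 1.83, 12.2, 6.82 and 0 CPM in the controls, again in this order, and 0.0418, 0, 0.183 and 0.79 CPM in the *Supt6*-KO mice. *Tgm3* did not share the order, since control 5 had its highest level. The part of hair follicle content in the *Padi1* values was not tested.

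Among the 3 other deiminase genes tested none was higher and 2 were lower, beside 34.1% and 36.8% over all genes, with a median log2 fold change of -4.06. *Padi2*, the broadly expressed member, was 12.4, 9.69, 13.6, 11.1 and 12.4 CPM in the controls and 0.752, 0.816, 0.412 and 0.826 CPM in *Supt6*-KO skin (log2 change -4.06, SE 0.23, adjusted p = 2e-07, edgeR). Its controls did not follow the inner root sheath order. *Padi3* was lower at -5.27 (SE 1.48, adjusted p = 0.0074, edgeR), and *Padi4*, known from neutrophils and other white blood cells, did not pass (0.39, adjusted p = 0.65, edgeR). *Padi4* was 4.81, 0.821, 1.55, 1.3 and 0.713 CPM in the controls, again in the inner root sheath order, and 0.46, 0.72, 2.01 and 6.36 CPM in the *Supt6*-KO mice. *Padi6* had too few counts to test. *Padi1* was thus the deiminase gene with the highest log2 fold change among the 4 tested, with group means of 3.99 ± 4.36 CPM (SD, n = 5) in the controls and 8.86 ± 2.09 CPM (SD, n = 4) in the *Supt6*-KO mice, although it did not pass the test.

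At the corneodesmosin locus on chromosome 17 the 2 genes behaved differently. The 250 bases before the start site are shown for *2300002M23Rik* (chr17:35567235-35567485, forward strand) and for the *Cdsn* start site that its GENCODE transcript uses (chr17:35551878-35552128, forward strand), from RefSeq sequences of GRCm38.p6, because these 2 start sites lie only 15.4 kb apart on the same strand and yet differ in their readout. The capital at the end of each run is the start base.
2300002M23Rik: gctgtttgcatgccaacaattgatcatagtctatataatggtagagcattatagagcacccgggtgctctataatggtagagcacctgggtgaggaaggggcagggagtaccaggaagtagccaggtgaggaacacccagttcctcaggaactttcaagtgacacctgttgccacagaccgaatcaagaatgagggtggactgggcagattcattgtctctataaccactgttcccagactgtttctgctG
Cdsn: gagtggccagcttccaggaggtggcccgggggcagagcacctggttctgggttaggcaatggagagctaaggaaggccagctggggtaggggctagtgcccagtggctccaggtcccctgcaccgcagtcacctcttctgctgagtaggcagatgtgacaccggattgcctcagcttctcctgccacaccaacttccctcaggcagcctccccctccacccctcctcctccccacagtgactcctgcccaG
The letters TGANTCA, AACCGGTT and TATAAA, searched on both strands from 250 bases before to 50 bases after the start, occur in neither window, which says only that these letters are not in these 300 bases. They occur in 7.81%, 0.146% and 13.6% of 32851 mouse promoter windows of this length. An NF-κB-type motif, present in 1.47% of these windows, was searched in the same way and found in none of the entries of the 10 genes. Of the other genes, which have entries except *Tgm2*, TATAAA was found 28 bases before the start of *Tgm3* and TGANTCA 24 bases after that of *Blmh*.

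*2300002M23Rik* (NCBI gene 69542, also Stg, chr17:35567485-35568945) is a gene for which no role is stated here. Its counts were 2, 0, 3, 2 and 0 in the controls, at or under the floor of 3 counts a library, and 262, 172, 526 and 101 in *Supt6*-KO skin. The transcript was thus hardly detected in control skin and present in every *Supt6*-KO mouse, at 10.9, 8.25, 24.1 and 3.63 CPM. Over the groups, 1061 counts in 4 mice stood against 7 in 5, a ratio of normalized rates of 299 (95% exact interval 144 to 744, for counting error only). The adjusted p was 2.6e-06 in edgeR's test, and the fitted log2 fold change of 8.13 exceeded that of 99.8% of the genes tested. With 7 counts in the controls, the gene passed the filter of 10 summed counts only through the *Supt6*-KO mice, so it had to differ in order to be tested, and its adjusted p and rank add nothing to the counts themselves.

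*Cdsn* (NCBI gene 386463, chr17:35543101-35557180) was 593, 504, 544, 583 and 521 CPM in the controls and 785, 459, 503 and 605 CPM in the *Supt6*-KO mice. The groups overlapped, with *Supt6*-KO mouse 1 the highest and *Supt6*-KO mouse 2 the lowest of all 9. The log2 fold change was 0.10 (SE 0.17, 95% interval -0.27 to 0.47, adjusted p = 0.61, edgeR), so the interval does not reach a change of 2-fold in either direction. With library totals it was -0.58 (adjusted p = 0.024, edgeR), while the median of all genes was -0.76.

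Of the genes within 150 kb of *Cdsn*, *Psors1c2*, which lies just before *Cdsn*, was higher at 1.83 (SE 0.53, adjusted p = 0.0088, edgeR). *Gtf2h4* (0.69, adjusted p = 0.0059) and *H2-Q10* (0.86, adjusted p = 0.015) were higher too in edgeR's test. The groups overlapped for *H2-Q10* and for *Psors1c2*, where *Supt6*-KO mouse 4 had 28.8 CPM and the controls had 12.6 to 69.4 CPM. *Mucl3* had 2 counts over the controls and 10 over the *Supt6*-KO mice, so it passed the filter only through the latter, and its place among the higher neighbours counted here rests on that. *Cchcr1* (-0.98, adjusted p = 0.00079), *Vars2* (-0.72, adjusted p = 0.0044), *Ddr1*, a collagen receptor gene (-1.96, adjusted p = 2.3e-06), and *H2-Q6* (-2.34, adjusted p = 0.00031) were lower. *Tcf19* (0.31, adjusted p = 0.16) and *H2-Q7* (-0.40, adjusted p = 0.54) did not pass, and *Pou5f1* was too low to test. The H2-Q genes are near-identical copies whose reads may be split among them. Of 29 tested neighbours of *Cdsn*, *Tgm3*, *Tgm5* and *Padi1* together, 9 were higher and 11 lower, close to the 34.1% and 36.8% over all genes, with a median log2 fold change of -0.15. With library totals 1 was higher and 16 were lower.

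**Figure D4:**
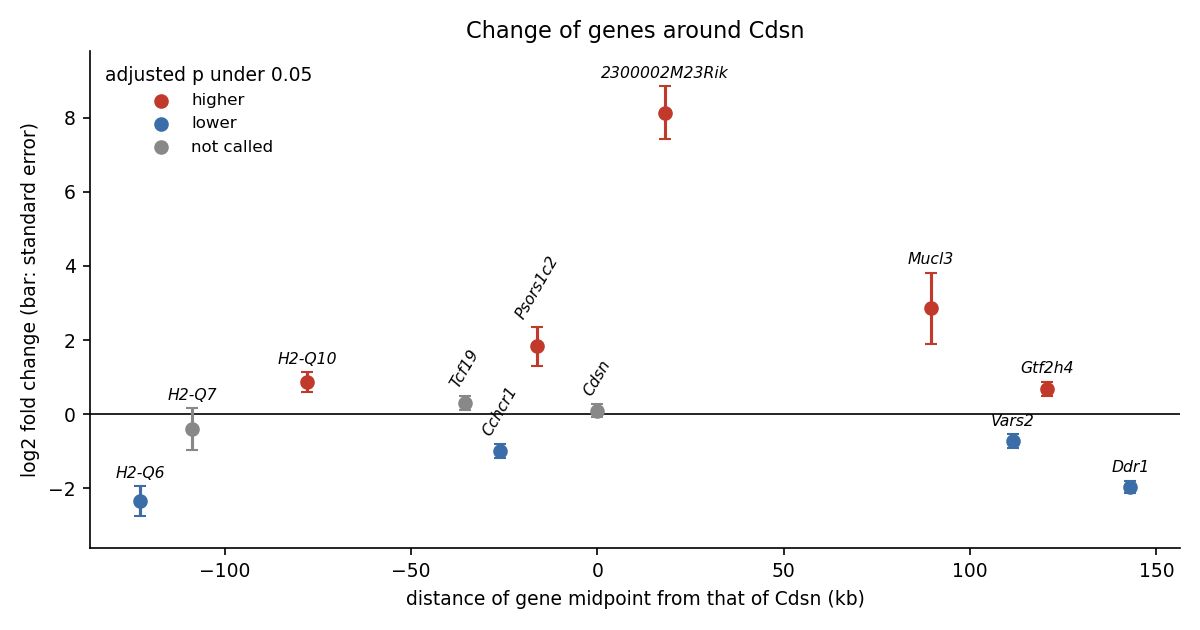
Log2 fold change with standard error (edgeR, TMM scaling) of *Cdsn* and its tested neighbours against the distance of their midpoints from that of *Cdsn* in kb, red for higher, blue for lower and grey for genes that did not pass. *2300002M23Rik* stands at 8.13 next to *Cdsn* at 0.10, and the other neighbours lie between -2.34 and 2.86.

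The partners of corneodesmosin went both ways, whereas most listed genes of proteases linked to the corneodesmosome and of their inhibitors were higher. Whether each of these enzymes cuts corneodesmosin was not tested. Of 8 corneodesmosome and desmosome genes 2 were higher and 5 were lower, beside 34.1% and 36.8% over all genes, with a median log2 fold change of -1.04. The desmosomal cadherin genes *Dsc1* (2.10, adjusted p = 2.9e-06) and *Dsg1b* (1.79, adjusted p = 7.5e-07) were highest and *Dsg1a* did not pass (0.11, adjusted p = 0.68), whereas the plaque genes *Evpl* (-1.74, adjusted p = 7.4e-06), *Jup* (-1.71, adjusted p = 6e-05) and *Dsp* (-1.37, adjusted p = 5.9e-05) were lowest in edgeR's test. Among 13 genes of proteases of the corneodesmosome and their inhibitors 11 were higher and none was lower, beside the same shares, with a median log2 fold change of 1.53. *Klk14* (0.0908 ± 0.0585 CPM, SD, n = 5, to 14.6 ± 12.4 CPM, SD, n = 4), the inhibitor gene *Serpinb6c* (log2 fold change 2.73, adjusted p = 2.6e-05, edgeR) and *Klk7* (2.31, adjusted p = 3.5e-06, edgeR) led the list. At its lower end were *St14* (-0.29, adjusted p = 0.11), *Spink5*, the gene of the kallikrein inhibitor LEKTI (0.27, adjusted p = 0.14), and *Spint1* (0.65, adjusted p = 0.0005, edgeR).

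In levels per kilobase of transcript, *Asprv1* was the most abundant of the 10 genes in both groups, at 712 ± 73.9 CPM per kilobase (SD, n = 5) in the controls and 2805 ± 1100.4 (SD, n = 4) in the *Supt6*-KO mice. In the controls *Cdsn* (205 ± 14.3) and *Blmh* (112 ± 10.5) came next, followed by *Tgm1* (35.5 ± 3.15), *Tgm3* (34.3 ± 5.56) and *Casp14* (34.0 ± 1.83), which did not differ beyond their spread. *Tgm2* (11.4 ± 2.50) and *Tgm5* (10.0 ± 0.838) were also within their spread, and *Padi1* (1.06 ± 1.16) and *2300002M23Rik* (0.0296 ± 0.0285) came last (SD, n = 5 for each). In *Supt6*-KO skin *Blmh* (518 ± 41.0) and *Casp14* (387 ± 76.4) had passed *Cdsn* (219.6 ± 54.2), and *Tgm1* (55.6 ± 7.40) followed. *Tgm5* (26.7 ± 6.64) and *Tgm3* (22.5 ± 4.89) were within their spread, and *2300002M23Rik* (9.09 ± 6.79), *Padi1* (2.36 ± 0.555) and *Tgm2* (2.05 ± 0.366) were lowest (SD, n = 4 for each).

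The changes of the 10 genes stood beside changes in markers of the cell types that whole skin holds. Each count of higher or lower markers below is to be read beside 34.1% higher and 36.8% lower over all genes. Of 6 keratinocyte markers 2 were higher and 1 was lower, none was at 0, and their sum was 25962, 26387, 25971, 27493 and 25067 CPM in the controls and 47394, 43354, 43456 and 31939 CPM in the *Supt6*-KO mice. *Supt6*-KO mouse 4 was the lowest of the 4 in this sum and in *Asprv1*, *Tgm5*, *Padi1* and *2300002M23Rik*, but the highest in *Tgm2* and the second highest in *Casp14*, *Tgm1*, *Tgm3* and *Cdsn*. Among the keratins it was lowest in *Krt1* and *Krt10* and highest in *Krt5* and *Krt14*. Neutrophil markers summed to 32.4, 42.8, 33.2, 14.1 and 15.6 CPM in the controls and to 4571, 5170, 6449 and 2516 CPM in the *Supt6*-KO mice, with 6 of 7 tested markers higher and *Mpo* lower (-4.62, adjusted p = 0.00095, edgeR). *Ly6g*, with 1 count over the controls and 20 over the *Supt6*-KO mice, passed the filter only through the latter. *Mpo*, with 66 and 1 counts, passed it only through the controls, so the calls of both rest on that. In the *Supt6*-KO mice nearly all of the neutrophil sum was *S100a9*, the most abundant, and *S100a8*, which keratinocytes can also express. In the controls these 2 genes made 23.1, 35.5, 26.5, 6.17 and 11.4 CPM of it. The other 6 markers summed to 9.36, 7.28, 6.64, 7.90 and 4.2 CPM in the controls and to 36.9, 33.1, 76.7 and 24.0 CPM in the *Supt6*-KO mice, still without overlap. Macrophage markers summed to 137, 114, 88.0, 133 and 222 CPM in the controls and to 234, 219.9, 239 and 276 CPM in the *Supt6*-KO mice, with 5 of 7 higher, *Mrc1* the most abundant over all mice, and *Csf1r*, the most abundant in the controls, lower (-1.83, adjusted p = 5.1e-05, edgeR). All 4 markers each of sebaceous gland, adipocyte and skeletal muscle were lower, led in abundance by *Scd1*, *Adipoq* and *Acta1*, and so were all 4 tested cartilage markers, led by *Acan*. *Matn1*, with 1 count over the controls and 0 in the *Supt6*-KO mice, was too low to test. Of the hair shaft markers all 6 tested were lower, led by *Krt33a*, with *Krt33b* at 0 in the *Supt6*-KO mice. *Krt33b*, and *Krt31* and *Krt35* with 4 and 3 counts over these mice, passed the filter only through the controls. Cartilage markers, which mark a tissue of the ear, summed to 356, 285, 273, 429 and 658 CPM in the controls and to 42.0, 50, 47.0 and 43.9 CPM in the *Supt6*-KO mice. Whether the samples of both groups hold the same tissue was not tested. The part of these cell types in the levels of the 10 genes was not tested.

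For each gene, the gene with the most similar profile was found by the smallest root mean square difference of mean-centred log2(CPM + 0.5) values over the 9 mice among 13564 genes. It was *Tacc1* for *Tgm2* (0.064), *Slc6a20a* for *Cdsn* (0.071), *Ell2* for *Blmh* (0.079), *Zfp407* for *Tgm3* (0.085) and *Edem1* for *Tgm1* (0.092). The match was looser for *Asprv1* with *Kcnmb4* (0.128), *Tgm5* with *Mxd1* (0.133), *Casp14* with *Fpr2* (0.179) and *2300002M23Rik* with *Mos* (0.317). *Fpr2* averaged only 0.0547 CPM in the controls and 5.10 CPM in the *Supt6*-KO mice, a log2 fold change of 6.46 against 3.51 for *Casp14*, so this likeness depends on the pseudocount of 0.5 CPM. *Mos*, at 0.0964 CPM in the controls, has the same limit. So has *Kcnmb4*, at 0.989 CPM in the controls and with a log2 fold change of 2.46 against 1.98 for *Asprv1*. *Padi1* had no close match, with *Slc39a8* nearest at 0.476. *Ell2*, the match of *Blmh*, went from 46.3 to 217 CPM in the group means.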

How the data were processed

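RNA-Seq of whole skin from 5 control and 4 *Supt6*-KO mice was analysed. The authors aligned the reads to mm10, and the submitters' processing notes name Bowtie2 2.3.4.3 and RSEM 1.3.1, HISAT and DESeq2 1.4.5. They deposited estimated counts per gene, not normalized between mice, and TPM values for 6 mice. The annotation release is not given in the sources used here. Of the counts 9.0% were not whole (tolerance 1e-09), and all were rounded. The filter kept genes whose summed count reached 10. Groups were compared with edgeR 4.0.16 (R 4.3.3) by its quasi-likelihood test with TMM scaling over all 9 mice, without covariates, and p-values were adjusted by Benjamini-Hochberg across the whole table. Intervals of fold changes (95%) use the t distribution with the degrees of freedom of each gene's test. CPM values are TMM-normalized, and CPM per kilobase uses GENCODE transcript lengths. The deposited TPM served only as an alternative for the order of levels.

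The alternatives were library totals, upper-quartile factors, DESeq2 1.42.0, no filter or at least 10 counts in every mouse, scaling that ignored the 50 most abundant genes, a correction for transcript length, a block for the replicate number, edgeR's test of changes beyond 2-fold, and omission of single mice. Nothing in the labels says more than that the 9 samples are separate mice, so p-values measure the spread between these mice.

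Gene identifiers were matched to RefSeq for 17917 of 17943 genes, on GRCm38. Sequences are of GENCODE transcripts and RefSeq promoters. Named are *Supt6*, the 10 genes, every tested gene of a list of 5 or fewer, the 3 highest and 3 lowest of longer lists, neighbours by position, the most abundant marker of each cell type and any at 0, and the gene most like each of the 10 among genes with a mean of at least 1 CPM. Of neighbours, those around *Cdsn* and those of the same families are named and the rest counted. The values of 2 genes that this rule names are not reported here. The members and lists were chosen with earlier results of these data known. The depth of 29627341 to 30967107 counts a mouse leaves a floor of 3 counts, and floors and counting intervals cover counting error only. Summaries used Python 3.11.15, pandas 2.3.3 and scipy 1.17.1, and figures matplotlib 3.10.9.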

Additional observations from a re-analysis of the deposited data

Results flagged for a closer look

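In the *Supt6*-KO group, the level of *Padi1* in mouse 4 was 5.75 CPM, while the group median was 9.74 CPM, a gap to the other 3 mice that is wide for a group of 4. The summed CPM of the hair shaft markers in *Supt6*-KO mouse 3 was 1.88, against a group median of 0.563, and stood apart in the same way, at a level far below that of 4 of the 5 controls. Among 48 groups of values examined 2 stood apart like this, and chance gives about 1 in 20, or about 2.4.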

How the results depend on the processing

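Of the fitted changes of the 10 genes and *Supt6*, the direction turned only for *Tgm1* with library totals (-0.04) and for *Cdsn* with library totals (-0.58) and without *Supt6*-KO mouse 1 (-0.07), among the alternatives run. With library totals, 4 of the 10 genes were at least 2-fold higher, 2 were at least 2-fold lower and 2 lay below all controls. The lists had 6 lower filaggrin genes, 2 lower corneodesmosome proteases, 5 lower substrates, 2 higher caspases and 1 higher neighbour, with 2771 of all genes higher. Log2 fold changes under this scaling were 0.71 for *Tgm5*, 1.24 for *Asprv1*, 1.51 for *Blmh*, 2.81 for *Casp14*, 0.43 for *Padi1* and 7.4 for *2300002M23Rik*. For *Tgm3* and *Tgm2* they were -1.29 and -3.15. The length correction left 1 of the 10 genes lower, 3 caspases higher and 1 lower. Tested against a 2-fold change, *Tgm1* and *Tgm3* did not pass, 1 of the 10 genes was lower, and the lists had 1 higher and 1 lower filaggrin gene, 3 lower corneodesmosome genes, 1 lower substrate, 1 higher and 0 lower caspases, and 1 higher and 7 lower neighbours, with 2271 genes higher and 2770 lower in all. With at least 10 counts in every mouse, 0 other transglutaminases and 0 other deiminases were lower, since the genes concerned were then not tested, 7 neighbours were lower, and *2300002M23Rik* could not be tested. Upper-quartile factors made 1 corneodesmosome protease lower.

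A replicate block put *Padi1* past the threshold (1.22, adjusted p = 0.035, edgeR), with 1 other transglutaminase higher and 1 corneodesmosome protease lower, and changed no other call of the 10 genes. Same-numbered mice did not deviate together in all pairs (correlations -0.011, 0.243, 0.222 and 0.0592 across 13564 genes, which are not independent replicates), nor did each mouse correlate best with its own number, so the numbers are not taken to pair mice.

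When single mice were omitted, log2 fold changes ranged from 0.57 to 0.72 for *Tgm1*, -0.72 to -0.50 for *Tgm3*, 1.23 to 1.51 for *Tgm5*, -2.58 to -2.34 for *Tgm2*, 3.36 to 3.57 for *Casp14*, 1.83 to 2.23 for *Asprv1*, 2.15 to 2.26 for *Blmh*, 0.87 to 2.06 for *Padi1*, -0.07 to 0.19 for *Cdsn* and 7.51 to 8.57 for *2300002M23Rik*. Of the 10 genes, 6 to 7 were higher, the seventh being *Padi1* without control 1, and 2 were lower. Other transglutaminases were higher in 0 to 1 cases (1 without control 5), corneodesmosome proteases lower in 0 to 1 (1 without *Supt6*-KO mouse 4) and caspases lower in 1 to 2 (1 without control 1 or control 3). By deposited TPM, *Tgm3* and *Casp14* change places in the control order, within their spread. The causes of these changes were not tested except where stated. Depth limits *2300002M23Rik* in the controls, where 3 counts or fewer were found in each.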
